A study of Mus musculus with 3 samples.

Results

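The 10 genes described encode the chains, chaperone and transactivator of MHC class II antigen presentation and were chosen by name: H2-Aa, H2-Ab1, H2-Eb1, H2-DMa, H2-DMb1, H2-DMb2, H2-Oa, H2-Ob, Cd74 and Ciita, of 14221 genes listed in at least 1 of the 3 count tables. The brains of 1 MHC class II-deficient mouse, which has almost no CD4 T cells, and of 2 adult wild type mice (WT 1 and WT 2) each gave 1 single-cell RNA library of sorted CD11b+ CD45+ cells. CD11b and CD45 are surface proteins of myeloid and other blood-derived cells, so the gate takes microglia together with macrophages of the brain borders, monocytes and neutrophils. The study concerns what a lack of CD4 T cells changes in microglia. Labels used here state neither the mutated allele nor the strain, sex or age in weeks of the mice. All 10 genes are listed in both WT tables and 7 of them in the deficient table. The 3 that the deficient table does not list are H2-Aa, H2-Ab1 and H2-Eb1. Genes detected in fewer than 5 barcodes are rare in the tables (17 in the deficient one), so these 3 lay below about 5 of 2278 barcodes (0.219%) and were not measured as 0.

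MHC class II molecules carry peptides from ingested material to the cell surface, where CD4 T cells read them. H2-Aa and H2-Ab1 encode the alpha and beta chains of I-A, and H2-Eb1 encodes the beta chain of I-E; these are called the classical chains here. Cd74 encodes the invariant chain, which fills the groove of new class II molecules until it is cleaved. H2-DMa and H2-DMb1 or H2-DMb2 form H2-M, which loads peptide, and H2-Oa and H2-Ob form H2-O, which restrains H2-M. Ciita encodes the transactivator that switches on class II genes and is itself inducible by interferon-gamma. Border-associated macrophages live in the meninges, the perivascular spaces and the choroid plexus, and are known to include cells with much and with little class II.

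The 8 H2 genes lie within 224.3 kb of chromosome 17 (mm10, GENCODE release 21), from H2-Oa at chr17:34092340-34095234 to H2-Eb1 at chr17:34305867-34316674. Ciita lies at chr16:10480059-10528418. The promoters of class II genes are known for a Y box and an X box, short elements bound by NF-Y and RFX, on which CIITA assembles. RefSeq promoters (build GRCm38.p6) were examined for 7 of the 10 genes. Promoters of the remaining genes were not examined, which does not show that RefSeq lacks them. The 5 below are shown for a pair of motifs searched as exact letters. H2-Aa and H2-Eb1, far higher in border-associated macrophages and monocytes than in microglia, and H2-Oa and H2-Ob, which were not, held the pair. H2-DMb1 did not hold both motifs in these exact letters. The motifs, chosen after the sequences were seen, were TGATTGG (the Y box) and GCAAC (letters within the X box), searched on both strands of windows of 300 bases. Each sequence below holds the 150 bases before the start site, read 5′ to 3′ on the gene's own strand, with either motif in capitals on either strand; chr17:34287824-34287973 (minus strand) for H2-Aa, chr17:34305717-34305866 (plus) for H2-Eb1, chr17:34092229-34092378 (plus) for H2-Oa, chr17:34238755-34238904 (plus) for H2-Ob and chr17:34153041-34153190 (plus) for H2-DMb1.
H2-Aa: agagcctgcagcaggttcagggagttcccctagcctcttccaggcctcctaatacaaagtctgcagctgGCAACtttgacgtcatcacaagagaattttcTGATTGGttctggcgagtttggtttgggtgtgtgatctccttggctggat
H2-Eb1: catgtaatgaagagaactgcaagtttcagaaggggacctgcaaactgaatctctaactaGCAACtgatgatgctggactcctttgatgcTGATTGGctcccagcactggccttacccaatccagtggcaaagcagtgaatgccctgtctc
H2-Oa: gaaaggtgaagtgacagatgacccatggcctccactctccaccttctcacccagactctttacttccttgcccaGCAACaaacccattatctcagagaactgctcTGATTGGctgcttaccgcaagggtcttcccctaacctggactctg
H2-Ob: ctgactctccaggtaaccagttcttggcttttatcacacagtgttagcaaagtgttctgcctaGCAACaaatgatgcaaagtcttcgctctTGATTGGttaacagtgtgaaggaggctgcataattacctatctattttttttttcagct
H2-DMb1: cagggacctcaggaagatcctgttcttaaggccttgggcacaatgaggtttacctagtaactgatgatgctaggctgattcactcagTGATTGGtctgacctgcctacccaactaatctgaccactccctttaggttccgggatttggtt
H2-Aa, H2-Eb1, H2-Oa and H2-Ob each held GCAAC followed by TGATTGG with at most 40 bases between, an arrangement found in 0.353% of 32851 RefSeq promoters of the same length. TGATTGG, with or without GCAAC, was found in 7.82% of them, and GCAAC, with or without TGATTGG, in 35.2%. H2-DMb1 and H2-DMb2 held TGATTGG without GCAAC, and the first listed H2-DMa promoter held only GCAAC on the opposite strand. Inexact matches were not searched, so these genes are not shown to lack an X box. H2-DMb1 reads gtaactgatgatgct where H2-Eb1 reads GCAACtgatgatgct. A match describes letters only, and no binding was measured.

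The tables held 6616662 unique molecular identifiers (UMIs, each a counted RNA molecule) in 2278 barcodes of the deficient library, 16230216 in 4589 barcodes of WT 1 and 17293844 in 4815 of WT 2. After filters on depth and mitochondrial share, 2257, 4340 and 4667 cells were kept in that order, with median depths of 2824, 3384.5 and 3338 UMIs. Pairs of libraries shared 13 to 28 cell barcodes. Cells were picked by UMIs of marker lists that hold no class II gene, and class names below stand for cells with those markers. The picks gave 10 border-associated macrophages, 24 monocytes, 17 neutrophils and 2185 microglia in the deficient library, 33, 52, 270 and 3861 in WT 1, and 31, 43, 133 and 4350 in WT 2. The border macrophage markers Lyve1, Cd163, Cbr2 and Cd209f are not listed in the deficient table, so its border-associated macrophages were picked on the other markers of the list. Cells with microglial markers together with markers of another class were kept apart as mixed (8 in the deficient library, 93 in WT 1 and 82 in WT 2). Levels are UMIs per 1000000 UMIs of the class in a library (CPM), and differences between classes were tested in the 2 WT libraries with edgeR's quasi-likelihood test, with library as a block. Nothing says whether the WT libraries differ in more than the animal. P-values of these comparisons measure the spread left among class sums of the 2 libraries once the block is taken out.

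Classical chain RNA was concentrated in few WT cells outside microglia. Here and below, fewer cells with a gene and less RNA per cell cannot be told apart in a class level. H2-Ab1 stood at 8157 CPM in the border-associated macrophages of WT 1 and 7166 CPM in those of WT 2, against 25.7 and 21.2 CPM in microglia. Monocytes lay between, at 2129 and 3109 CPM. H2-Aa stood at 7170.4 and 5601 CPM in border-associated macrophages and 1826 and 2791 CPM in monocytes, against 8.49 and 6.06 CPM in microglia. H2-Eb1 stood at 5698 and 4947 CPM in border-associated macrophages and 1586 and 2056 CPM in monocytes, against 9.07 and 5.22 CPM in microglia. For each of the 3 chains every border macrophage value lay above every monocyte value, a difference that was not tested, and every monocyte value lay far above every microglial value.

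In border-associated macrophages, 7 of the 9 members that could be tested were higher than in microglia, 1 was lower and 1 was not called, at an adjusted p under 0.05. The 7 were H2-Ab1, Cd74, H2-DMa and H2-DMb1, and also H2-Aa, H2-Eb1 and Ciita. The last 3 passed the filter on low counts through the classes where they are high. The count and the member median are therefore not read as support. Of all 7413 genes tested, 11.4% were called higher and 7.92% lower (19.3% in either direction). The median log2 fold change was 8.59 over the 9 members and -0.12 over all genes tested. The difference on the log2 scale was 10.0 for H2-Aa (SE 0.40, adjusted p = 2.00e-16, edgeR), 9.79 for H2-Eb1 (SE 0.32, adjusted p = 4.77e-18) and 8.59 for H2-Ab1 (SE 0.34, adjusted p = 2.38e-16). The marker limits were also doubled, to at least 6 distinct markers in border-associated macrophages and 12 in microglia. Under these limits the log2 differences were 8.89 for H2-Aa, 8.68 for H2-Eb1 and 7.15 for H2-Ab1. H2-Ab1 was still called. H2-DMb2 did not pass the filter on low counts, which takes all classes together, and so was tested in none of the class comparisons. It had 0 UMIs in the border-associated macrophages of both WT libraries, where 3 UMIs would be 22.1 and 20.9 CPM. Against microglia, 58.9% of called genes were higher, and 40.8% with scaling on total UMIs alone, which moved the median of all genes by -0.25.

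In monocytes, 7 of the 9 tested members were higher than in microglia and none was lower, where 26.6% and 24.1% of all tested genes were called in those directions (50.6% in either). They were the same 7 genes as in border-associated macrophages, with the same limit on H2-Aa, H2-Eb1 and Ciita. The same 3 chains differed by 8.63 on the log2 scale for H2-Aa (SE 0.38), 8.32 for H2-Eb1 (SE 0.31) and 7.11 for H2-Ab1 (SE 0.32, adjusted p = 8.83e-16, edgeR). With WT 2 left out, the log2 ratios of CPM plus 1 were 7.59, 7.30 and 6.32 for these genes, and with WT 1 left out 8.63, 8.37 and 7.13 (no test). The median was 7.11 over members and -0.07 over all genes. Of called genes 52.5% were higher, and 38.9% with scaling on total UMIs alone (a shift of the median by -0.30).

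**Figure D1:**
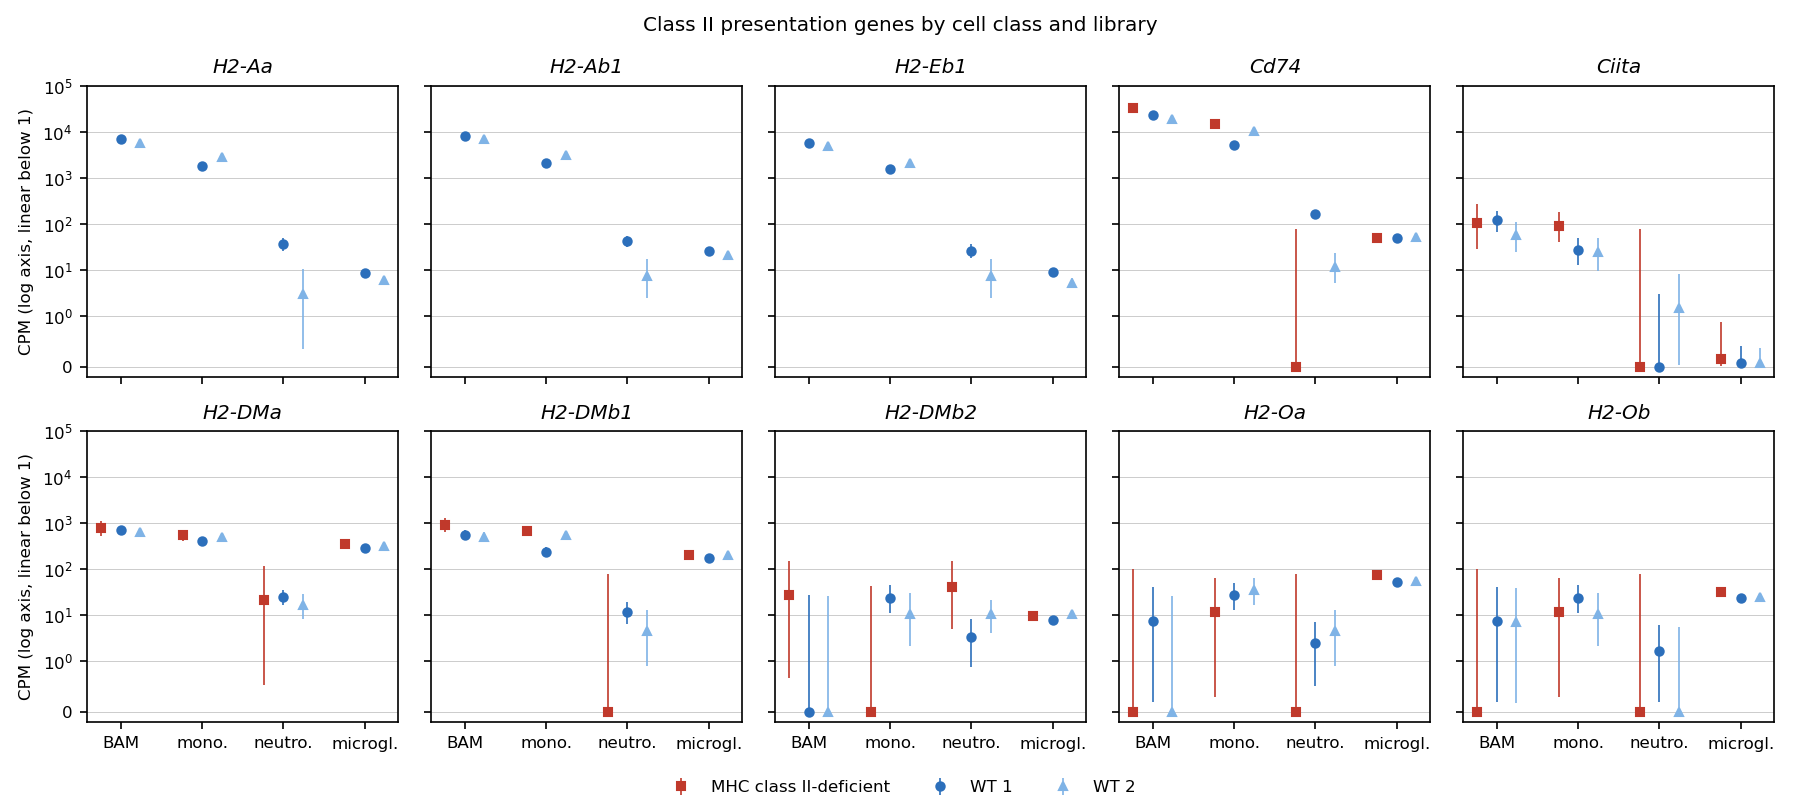
Level of each gene in 4 cell classes (border-associated macrophages, monocytes, neutrophils, microglia) in the deficient library (red squares), WT 1 (dark circles) and WT 2 (light triangles), in CPM on a log axis that is linear below 1, with exact 95% Poisson intervals for counting error. H2-Aa, H2-Ab1 and H2-Eb1 have no deficient points because that table does not list them; in WT they stand between 4947 and 8157 CPM in border-associated macrophages and between 5.22 and 25.7 CPM in microglia, while H2-Oa and H2-Ob stand no higher in border-associated macrophages than in microglia.

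Cd74, at chr18:60803848-60812652, stood highest, among the 4 classes described, in border-associated macrophages and then monocytes, like the classical chains. It stood at 32509 CPM in the border-associated macrophages of the deficient library, against 23263 CPM in WT 1 and 18980.4 CPM in WT 2. In monocytes it stood at 14724 CPM in the deficient library, against 5169 and 10486 CPM in WT 1 and WT 2. In microglia it stood at 49.0 CPM in the deficient library, against 49.9 and 52.0 CPM in WT 1 and WT 2. Invariant chain RNA was thus measured in the deficient library, where the classical chains were below the listing limit. With 10 and 24 deficient cells and 1 library, no test was made of the border macrophage and monocyte values. Most monocyte Cd74 UMIs lay in a minority of the cells of each library. The median monocyte held 2 Cd74 UMIs in the deficient library, where the class held 1287, against 1 in WT 1 and 8 in WT 2. The deficient monocyte value thus rests on few cells. Neutrophils had 0 Cd74 UMIs in 17 cells of the deficient library, which allows up to 61.9 CPM, against 167 and 11.7 CPM in WT 1 and WT 2. The deficient library had a median depth of 2480 UMIs in monocytes, against 7068.5 and 7517 in WT 1 and WT 2, and the part of this in the Cd74 values was not tested. Against microglia of WT, Cd74 was higher by 8.92 in border-associated macrophages (SE 0.55, adjusted p = 1.76e-12, edgeR) and by 7.59 in monocytes (SE 0.52, adjusted p = 4.15e-12), both on the log2 scale. The first was 7.88 with at least 6 distinct markers (12 in microglia), and the second 6.67 with WT 2 left out (log2 ratio of CPM plus 1, no test).

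Ciita, which encodes the transactivator, was seen in few molecules. Border-associated macrophages held 4 Ciita UMIs in the deficient library (106 CPM), 16 in WT 1 (118 CPM) and 8 in WT 2 (55.7 CPM). Monocytes held 8 in the deficient library (91.5 CPM), 10 in WT 1 (26.4 CPM) and 7 in WT 2 (23.7 CPM). Each library's microglia, 2185 to 4350 cells, held 1 Ciita UMI. In the deficient library, WT 1 and WT 2 the UMIs lay in 1 of 10, 10 of 33 and 7 of 31 border-associated macrophages. Among monocytes they lay in 4 of 24, 6 of 52 and 4 of 43. Ciita was thus seen in a minority of cells of both classes and almost unseen in microglia. Over both WT libraries the ratio of Ciita CPM in border-associated macrophages to that in microglia was 1260 (exact 95% interval 312 to 11000), and in monocytes 369 (87.7 to 3300). Ciita passed the filter on low counts through the classes where it is high, so its edgeR calls are not read as support.

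H2-DMa and H2-DMb1, the peptide-loading chains, differed far less between classes than the classical chains, apart from low levels in neutrophils. H2-DMa stood at 768 CPM in border-associated macrophages of the deficient library, against 714 and 647 CPM in WT 1 and WT 2. In monocytes it stood at 538 CPM in the deficient library, against 406 and 505 CPM in WT 1 and WT 2. Microglia had 356 CPM in the deficient library, against 283 and 317 CPM in WT 1 and WT 2. H2-DMa UMIs were found in 8.15% of neutrophils in WT 1 and 6.02% in WT 2, at median depths of 2991 and 3094 UMIs, against 57.8% and 61.8% of microglia at 3374 and 3324 UMIs. In the deficient library 60.8% of microglia had one. Against microglia of WT, H2-DMa was higher by 1.42 in border-associated macrophages (SE 0.18, adjusted p = 7.17e-07, edgeR) and by 0.88 in monocytes (SE 0.16, adjusted p = 5.97e-05), on the log2 scale. With WT 2 left out, the monocyte differences were 0.52 for H2-DMa and 0.46 for H2-DMb1 (log2 ratio of CPM plus 1, no test). H2-DMa overlaps Brd2 on the opposite strand, and nothing in the labels says whether counting used strand.

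H2-DMb1 stood at 900.1 CPM in border-associated macrophages of the deficient library, against 559 and 501 CPM in WT 1 and WT 2. In monocytes it stood at 675 CPM in the deficient library, against 237 and 555 CPM in WT 1 and WT 2. Microglia had 198 CPM in the deficient library, against 172 and 205 CPM in WT 1 and WT 2. The WT libraries thus differed more from each other in monocytes than in microglia. H2-DMb1 was higher than in WT microglia by 1.73 in border-associated macrophages (SE 0.24, adjusted p = 4.61e-06, edgeR) and by 1.30 in monocytes (SE 0.21, adjusted p = 1.33e-05). These calls in border-associated macrophages depended on which cells were picked. The setting that follows changed both classes, with at least 12 distinct microglial markers in place of 6. With at least 6 distinct markers in place of 3, the log2 differences were 0.39 for H2-DMa (adjusted p = 0.366, edgeR; 5.70e-10 to 0.366 over 9 alternatives) and 0.46 for H2-DMb1 (adjusted p = 0.408, with a range of 1.54e-14 to 0.408). In monocytes thinned to 1000 UMIs per cell, the H2-DMb1 difference was 0.58 (adjusted p = 0.115, with a range of 1.38e-11 to 0.115). H2-DMb2, a near-identical copy of H2-DMb1 between which UMIs may be split, stood at 9.55 CPM in microglia of the deficient library, against 7.84 and 10.2 CPM in WT 1 and WT 2. Its UMIs numbered 1, 0 and 0 in border-associated macrophages, 0, 9 and 3 in monocytes and 2, 4 and 7 in neutrophils of those libraries. Both genes are uncertain for that reason.

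H2-Oa and H2-Ob, the chains of the H2-M inhibitor H2-O, were called higher than in microglia in none of the 3 other classes. In border-associated macrophages H2-Oa had 0 UMIs in the deficient library, against 1 UMI in WT 1 and 0 in WT 2. Monocytes had 11.4 CPM (1 UMI) in the deficient library, against 26.4 and 33.9 CPM in WT 1 and WT 2. Microglia had 73.3 CPM in the deficient library, against 52.7 and 53.3 CPM in WT 1 and WT 2. In both WT libraries microglia had the highest H2-Oa level, while 0 UMIs in the 10 deficient border-associated macrophages allow up to 79.4 CPM and show no order there. Over both WT libraries the ratio of border macrophage to microglial H2-Oa was 0.0675 (exact 95% interval 0.00171 to 0.376), called lower by edgeR (adjusted p = 0.00370). DESeq2 did not call it (adjusted p = 0.0751, with a range of 0.000263 to 0.0751 over 8 alternatives). The 0 UMIs of WT 2 allow up to 20.9 CPM, and WT 1 stood at 7.36 CPM with its 1 UMI.

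H2-Ob had 0, 1 and 1 UMIs in border-associated macrophages of the deficient library, WT 1 and WT 2, and stood at 31.6 CPM in microglia of the deficient library, against 23.4 and 24.9 CPM in WT 1 and WT 2. Monocytes had 11.4 CPM (1 UMI) of H2-Ob in the deficient library, against 23.7 and 10.2 CPM in WT 1 and WT 2. Its ratio of 0.295 in border-associated macrophages had an interval of 0.0357 to 1.07 and was not called (adjusted p = 0.301, edgeR). In monocytes H2-Oa differed from microglia by -0.55 (SE 0.34, adjusted p = 0.183, edgeR) and H2-Ob by -0.18 (SE 0.49, adjusted p = 0.788), neither called. H2-Oa was called lower in monocytes with total UMIs as the only scaling (-0.85, adjusted p = 0.0321) and with all 3 libraries (-0.82, adjusted p = 0.0473), over a range of 0.0321 to 0.414. Most H2-Oa UMIs of WT monocytes, 7 of 10 and 10 of 10, lay in 2 and 3 of the cells with many classical UMIs described below. H2-Oa overlaps BC051537 on the opposite strand, which counting without strand could not tell apart.

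The H2-O chains were spread thinly over microglia and showed little pairing in single cells. H2-Oa UMIs were found in 18.1% of microglia of the deficient library, 16.2% in WT 1 and 15.8% in WT 2, and H2-Ob UMIs in 8.74%, 7.85% and 8.34%. Among microglia with an H2-Oa UMI, 10.6% also had an H2-Ob UMI in the deficient library, 8.45% in WT 1 and 9.0% in WT 2, against 8.32%, 7.73% and 8.22% of those without one. Median depth was also higher in the first set (3033, 3685 and 3595 UMIs against 2774, 3314 and 3289), and its part in the small difference was not tested.

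Neutrophils, which are not known as class II cells, were used as the class that should lack these genes. Free RNA in empty droplets was not analysed here, and 2 neutrophils of WT 1 held most classical UMIs of their class. An H2-Ab1 UMI was detected in 4.44% of neutrophils in WT 1 (interval 2.32 to 7.63) and 3.76% in WT 2 (1.23 to 8.56), at median depths of 2991 and 3094 UMIs. Microglia had 6.81% (6.04 to 7.65) and 6.92% (6.18 to 7.71), at median depths of 3374 and 3324 UMIs, so the intervals overlapped. With each cell thinned to 1000 UMIs the H2-Ab1 shares were 1.15% and 0.00% in neutrophils (0 of 122 cells in WT 2), against 1.99% and 1.86% in microglia. Cells with at least 2 H2-Ab1 UMIs made up 0.741% and 0.00% of neutrophils, against 0.389% and 0.552% of microglia. The other chains did not stand above neutrophils by more than counting error. H2-Aa was detected in 4.07% and 1.5% of neutrophils, against 2.12% and 2.09% of microglia, and H2-Eb1 in 3.70% and 3.76% of neutrophils, against 2.38% and 1.84% of microglia. H2-Eb1 shares in microglia were below the neutrophil share in both libraries and H2-Aa shares in WT 1, and in WT 2 the H2-Aa share lay within the neutrophil interval (0.183 to 5.33). These shares of cells are thus not separated from the neutrophil level. The few microglia with many such UMIs are described below.

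In the test against microglia, 4 of 9 members were called higher in neutrophils (H2-Aa, H2-Ab1, H2-Eb1 and Cd74) and 4 lower (H2-DMa, H2-DMb1, H2-Oa and H2-Ob), where 33% and 30.9% of all tested genes were called in those directions (63.9% in either). The log2 difference was 3.11 for H2-Aa (SE 0.49) and 2.86 for H2-Eb1 (SE 0.43). It was 1.72 for H2-Ab1 (SE 0.39, adjusted p = 0.000439, edgeR) and 2.38 for Cd74 (SE 0.48, adjusted p = 0.000114). H2-Aa and H2-Eb1 passed the filter on low counts through the classes where they are high, so their calls are not read as support. The median was 1.72 over the 9 members and -0.06 over all genes. The higher calls rested on WT 1. There 2 neutrophils held 100 of the class's 127 classical UMIs, and without these cells, left out after their values were seen, classical UMIs stood at 22.5 CPM, against 17.5 CPM in the neutrophils of WT 2, with microglia at 33.0 CPM in WT 1, without their 3 cells of at least 10 classical UMIs, and 32.5 CPM in WT 2. With WT 1 left out, the difference between neutrophils and microglia turned to -0.85 for H2-Aa, -1.42 for H2-Ab1 and -2.07 for Cd74 (log2 ratio of CPM plus 1, no test), and was 0.41 for H2-Eb1. The scaling also bears on them: with total UMIs alone the median of all genes moved by -1.53, 15.1% instead of 51.6% of called genes were higher, and neither H2-Ab1 (0.19, adjusted p = 0.599, edgeR; range 3.09e-06 to 0.599) nor Cd74 (0.85, adjusted p = 0.0567, range 9.56e-16 to 0.144) was called. H2-Ab1 was not called in thinned cells either (0.66, adjusted p = 0.380), nor Cd74 by DESeq2 (2.04, adjusted p = 0.144). The lower calls held in all tested alternatives for H2-DMa (log2 difference -2.31, SE 0.23, adjusted p = 2.94e-09) and H2-DMb1 (-2.88, SE 0.38, adjusted p = 3.01e-07), and likewise for H2-Oa (-2.57, SE 0.46, adjusted p = 3.18e-05) and H2-Ob (adjusted p = 0.00146), whose 2 UMIs in neutrophils gave a ratio of 0.043 (exact 95% interval 0.00519 to 0.156). H2-Ob passed the filter on low counts mainly through microglia, where it is high, so its call is not read as support. Ciita, with 0 UMIs in WT 1 neutrophils and 1 in those of WT 2, had a ratio of 7.63 (0.129 to 147) and was not called by edgeR (adjusted p = 0.154), though DESeq2 called it (adjusted p = 0.0209, with a range of 0.0209 to 0.301).

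The small amount of classical RNA in microglia had another make-up than that of the high classes. H2-Ab1 made up 38.8% of classical UMIs in border-associated macrophages in library WT 1 (95% interval 37.0 to 40.6, exact by Clopper and Pearson) and 40.5% in WT 2 (38.5 to 42.4). In monocytes its share was 38.4% (36.3 to 40.5) and 39.1% (37.1 to 41.1). Neutrophils had 40.2% (31.6 to 49.2) and 41.7% (15.2 to 72.3). Microglia had 59.4% of 596 UMIs in WT 1 (55.3 to 63.4) and 65.3% of 504 in WT 2 (60.9 to 69.4). Border macrophage and monocyte shares thus lay below the microglial share by more than counting error in both libraries. Without the 2 WT 1 neutrophils that held most of that class's classical UMIs, the neutrophil share in WT 1 was 37.0% of 27 UMIs (19.4 to 57.6), an interval that meets the microglial one. In microglia with fewer than 10 classical UMIs the share was 61.5% (56.9 to 66.03) in WT 1 and 65.3% in WT 2. For each H2-Aa UMI there were 1.14 and 1.28 H2-Ab1 UMIs in border-associated macrophages of WT 1 and WT 2, against 3.03 and 3.50 in microglia. The intervals treat UMIs as independent, which those of 1 cell are not.

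**Figure D2:**
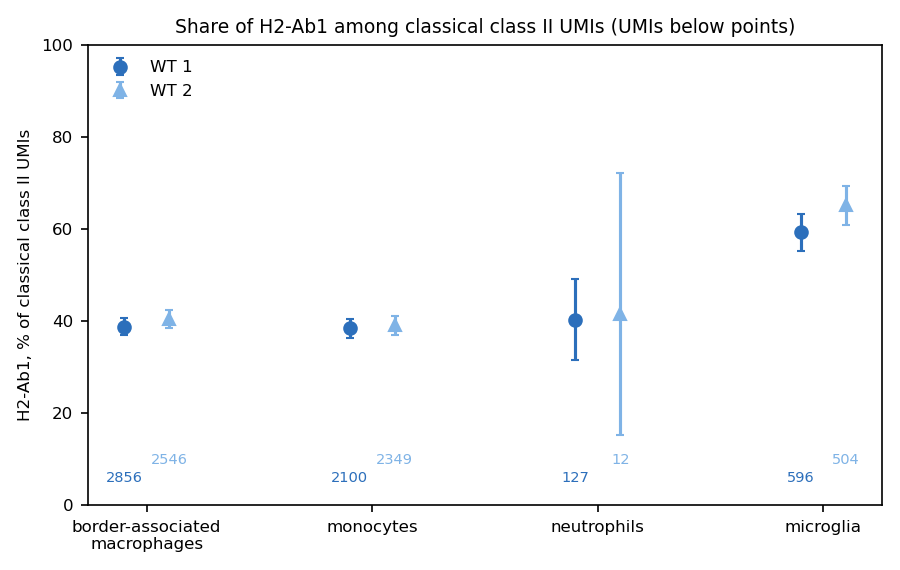
Share of H2-Ab1 among UMIs of H2-Aa, H2-Ab1 and H2-Eb1 in percent, by cell class in WT 1 (dark circles) and WT 2 (light triangles), with exact 95% binomial intervals and the number of classical UMIs printed below. Border-associated macrophages and monocytes stand between 38.4% and 40.5%, microglia at 59.4% and 65.3%.

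Few microglia held the chains together. Of microglia with an H2-Ab1 UMI, 12 of 263 in WT 1 (4.56%, interval 2.38 to 7.83) and 11 of 301 in WT 2 (3.65%, 1.84 to 6.44) also had an H2-Aa UMI, against 1.95% (1.52 to 2.45) and 1.98% (1.57 to 2.45) of those without. H2-Aa, H2-Ab1 and H2-Eb1 UMIs occurred together in 3 microglia of each WT library. Of the WT 1 cells, 1 held 12 classical UMIs and the others 61 and 68, with 62 and 53 Cd74 UMIs, no Ciita UMI and 2.21% and 2.40% of their UMIs from microglial markers. The WT 2 cells held 3 to 5 classical UMIs each. No microglia of WT 2 held more than 6.

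Border-associated macrophages split into cells with many classical UMIs and cells with none or few. In WT 1, 9 of 33 cells held 0 classical UMIs, 6 held 1 to 9, and 16 held over 50, up to 315. In WT 2, 10 of 31 held 0, 6 held 1 to 9, and 15 held over 50, up to 309. Only 2 cells, both in WT 1, fell between 10 and 50. Depth was similar in both sets, with a median of 3906.5 UMIs in cells with at least 10 classical UMIs against 4391 in the others in WT 1, and 4064 against 4061.5 in WT 2. The number of high cells depended on the pick. Cells with at least 10 classical UMIs were 18 of 33 in WT 1 and 15 of 31 in WT 2. With at least 6 distinct markers, most of these were no longer picked. In WT 1 there remained 2 of 12 cells with Lyve1 or Cd163 UMIs and 3 of 7 without. In WT 2 there remained 2 of 16 with and 2 of 2 without.

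**Figure D3:**
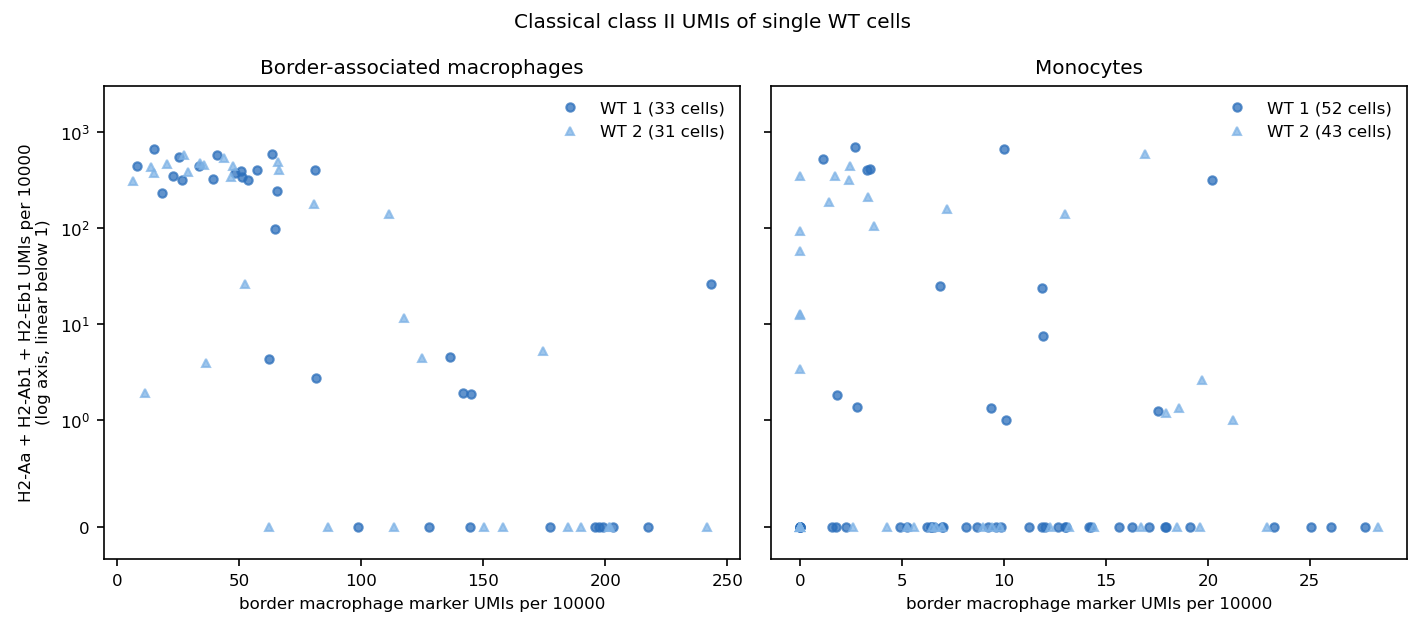
Each point is 1 WT cell: UMIs of H2-Aa, H2-Ab1 and H2-Eb1 per 10000 UMIs (log axis, linear below 1) against UMIs of 12 border macrophage markers per 10000, in border-associated macrophages (left) and monocytes (right), with WT 1 as dark circles and WT 2 as light triangles. Border-associated macrophages with high classical counts lie at the low end of the marker axis, and cells with none mostly at the high end; 9 cells of WT 1 and 10 of WT 2 lie at 0.

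Cd74, H2-DMa, H2-DMb1 and Ciita followed this split, while H2-DMb2, H2-Oa and H2-Ob, with 0 or 1 UMI in the class in each WT library, could not show it. Cells with at least 10 classical UMIs had 42450 CPM of Cd74 in WT 1 and 40810 CPM in WT 2, against 1203 and 703 CPM in cells with fewer. Their H2-DMa stood at 1170 and 1221 CPM, against 190 and 166 CPM, and H2-DMb1 at 964 and 901 CPM, against 95.0 and 166 CPM. All 24 Ciita UMIs of WT border-associated macrophages were in these high cells. The border macrophage markers as a list moved the other way, at 4129 and 3908 CPM in the high cells, against 15160 and 11490 CPM in the others. The monocyte list stood at 550.5 and 733 CPM in the high cells, against 95.0 and 230.1 CPM in the others, and its part in the split was not tested. Ccr2, a chemokine receptor of monocytes, had 25 and 32 UMIs in the high cells, against 0 and 7 in the others, while Ly6c2 and Plac8, defining monocyte markers, had at most 1 UMI in any of these sets. The 10-UMI line was drawn with the data in view, so these values are a description with no test.

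A split of the class by markers that are not class II genes separated the same cells in part. Among border-associated macrophages with a UMI of Lyve1, a hyaluronan receptor, or Cd163, a haemoglobin scavenger receptor, 38.5% of 13 cells in WT 1 (interval 13.9 to 68.4) and 47.4% of 19 cells in WT 2 (24.4 to 71.1) had any classical UMI. Without such UMIs the shares were 95.0% of 20 cells (75.1 to 99.9) and 100.0% of 12 cells (73.5 to 100.0). Classical levels were 7464 and 7097 CPM with these markers, against 29717 and 37345 CPM without. Cells with Lyve1 UMIs in particular, 7 in WT 1 and 8 in WT 2, held 2 and 0 classical UMIs in all. With 2 libraries and single cells that are not replicates, no test was made of this split.

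The 3 classical chains, Cd74 and Ciita were found in the same border-associated macrophages. Of cells with an H2-Ab1 UMI, 19 of 21 in WT 1 and 17 of 18 in WT 2 also had UMIs of H2-Aa, H2-Eb1 and Cd74, against 2 of 12 and 0 of 13 without. Ciita was detected in 10 of 21 and 7 of 18 of the cells with an H2-Ab1 UMI and in 0 of 12 and 0 of 13 of the others, which allows shares of up to 25.0% and 23.1%. In the deficient library, where H2-Ab1 cannot be used, 9 of 10 border-associated macrophages had a Cd74 UMI, and 6 of these 9 also had both H2-DMa and H2-DMb1 UMIs. A single deficient cell held all 4 of the class's Ciita UMIs.

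Among 2065 genes found in at least 20% of border-associated macrophages of both WT libraries, likeness to the summed classical chains was measured as Pearson r over cells of log counts per 10000, taking the lower of both libraries. By this lower value the members stood above every gene outside the set, though in WT 2 by itself Plbd1, at 0.54, stood above Ciita, at 0.52. The classical chains make up the sum, so their own values say nothing. Cd74 had 0.94, H2-DMa 0.79, H2-DMb1 0.78 and Ciita 0.52, over 33 cells in WT 1 and 31 in WT 2. Next came Eef1a1 at 0.45, a translation elongation factor, then Rbm25 at 0.44, Plbd1 and Coro1a at 0.43 and Rpl18 at 0.42, all weak. At the other end, looked up after the values were seen, stood Cbr2, Lyve1, Ccl24, Pf4 and Blvrb, with the value nearer 0 between -0.69 and -0.57; Cbr2, Lyve1 and Pf4 are among the markers that picked the cells. All cells of a library share its depth and preparation, so the values are descriptive.

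Monocytes held the same split with other companions. In WT 1, 8 of 52 monocytes, and in WT 2, 12 of 43, had at least 10 classical UMIs, and they held 2088 of 2100 and 2336 of 2349 classical UMIs of the class. Ciita had 10 and 5 UMIs in these cells, against 0 and 2 in the others. Cd209a and Flt3, markers of dendritic cells and their precursors, had 21 and 9 UMIs in the high monocytes of WT 1, against 0 and 9 in the 44 others, and 64 and 7 in WT 2, against 2 and 2 in the 31 others. The dendritic cell list as a whole summed to 1140 and 1226 CPM in the high monocytes, against 356 and 475 CPM in the others. Not every gene of that list did so: Ifi205 stood at 38.0 and 90.0 CPM, against 46.0 and 92.1 CPM, and Naaa at 323 and 202 CPM, against 248 and 291 CPM. Ly6c2, a marker of classical monocytes, ran the other way, at 912 and 135 CPM, against 1885 and 1342 CPM. Dendritic cells by this list numbered 0, 1 and 5 in the deficient library, WT 1 and WT 2, and the part of such cells in the monocyte values was not tested.

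Much of the classical RNA of the libraries lay outside the 4 classes. Border-associated macrophages held 30.3% and 23.3% of all classical UMIs of WT 1 and WT 2, monocytes 22.3% and 21.5%, mixed cells 26.6% and 31.8%, and microglia, by far the largest class, 6.33% and 4.62%. These mixed cells carried 25440 and 26700 CPM of microglial markers, against 4292 and 5163 CPM in border-associated macrophages, and 45660 and 29120 CPM of neutrophil markers. Of them, 19 and 16 held at least 10 classical UMIs, at median depths of 9114 and 9492.5 UMIs, against 4980 and 5476 over all mixed cells. The 5 dendritic cells of WT 2 held 16.8% of its classical UMIs and 14.1% of its Cd74 UMIs, and stood at 47081 CPM of classical RNA, above the 17714 CPM of its border-associated macrophages.

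In microglia, the comparison of the deficient library with WT covered the 6 members that could be tested. H2-Oa was higher in the deficient library, by 0.47 on the log2 scale (SE 0.09, adjusted p = 0.00396, edgeR), and no other member was called in either direction, where 1.61% of 11855 tested genes were called higher and 6.44% lower (8.06% in either direction). DESeq2 did not call H2-Oa (0.48, adjusted p = 0.187; 0.00397 to 0.187 over 6 alternatives), and the difference was 0.45 with WT 1 left out. The median over the 6 members was 0.17, and 0.00062 over all genes. H2-Ob differed by 0.39 (SE 0.13, adjusted p = 0.0849), H2-DMa by 0.25 (SE 0.10, adjusted p = 0.188), H2-DMb1 by 0.08 (SE 0.11, adjusted p = 0.774), H2-DMb2 by 0.09 (SE 0.24, adjusted p = 0.894) and Cd74 by -0.05 (SE 0.10, adjusted p = 0.854). The deficient values lay above both WT values for H2-Oa, H2-Ob and H2-DMa. At 1000 UMIs per cell, H2-Oa UMIs were found in 6.65% of microglia of the deficient library, against 4.43% in WT 1 and 4.65% in WT 2, and H2-Ob UMIs in 3.54%, against 2.51% and 2.60%. The deficient group is 1 library, assumed in the test to vary like WT.

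**Figure D4:**
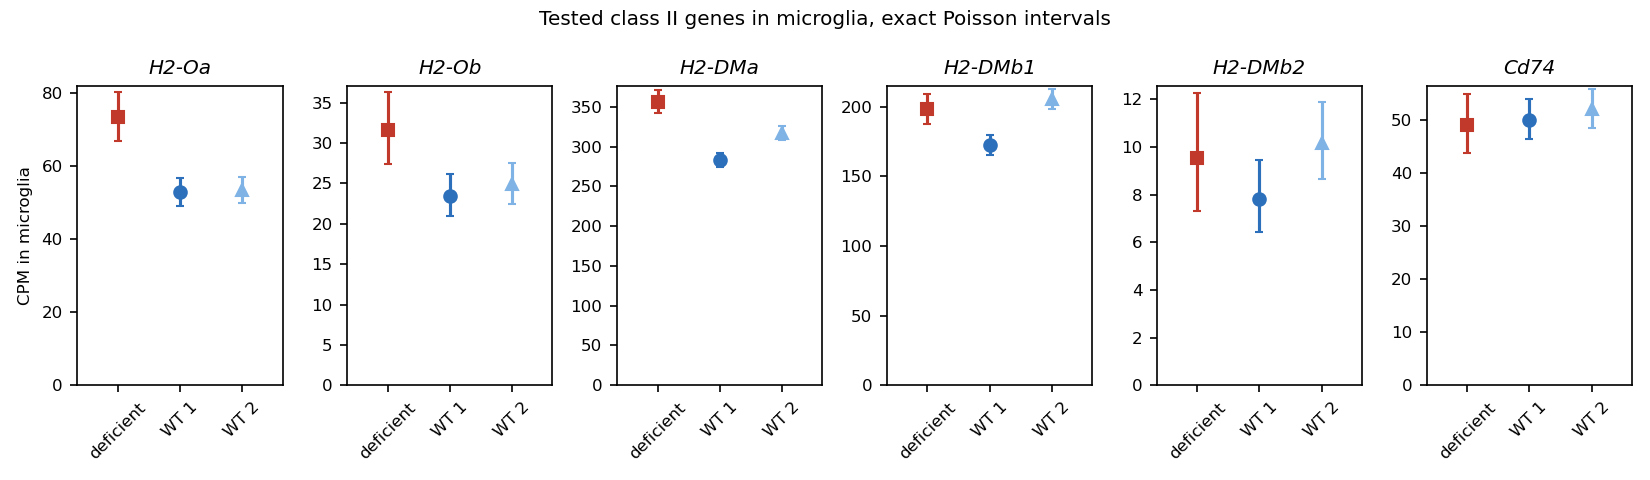
Level of the 6 tested genes in microglia, in CPM with exact 95% Poisson intervals for counting error, in the deficient library (red squares), WT 1 (dark circles) and WT 2 (light triangles). H2-Oa stands at 73.3 CPM in the deficient library, above 52.7 and 53.3 CPM in WT; Cd74 stands between 49.0 and 52.0 CPM in all 3.

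The wider class II pathway was counted over a list of 26 genes that covers transcription factors, the interferon-gamma receptor path, endosomal proteases, turnover and co-stimulation. In microglia, Rfxap, a subunit of RFX, was lower in the deficient library than in WT by a log2 difference of -1.12 (SE 0.19, adjusted p = 0.00109, edgeR), with 8.61 CPM in the deficient library against 20.2 and 17.6 CPM in WT 1 and WT 2. It was the 1 gene called lower among the 24 of the list that were tested, where 6.44% of all tested genes were called lower. The abundant proteases Ctsd, Ctss and Lgmn differed by 0.08, 0.04 and 0.07, none called.

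In border-associated macrophages 5 of 22 tested pathway genes were higher than in WT microglia and 7 lower, where 11.4% and 7.92% of all genes were called in those directions, with a median of -0.16 against -0.12 over all genes. Cd40, a co-stimulatory receptor, stood at 36.8 and 55.7 CPM, against 0.871 and 0.322 CPM in microglia (log2 difference 6.44, SE 0.92). It is among the 5 counted higher. Cd40 passed the filter on low counts through the classes where it is high, so its edgeR calls are not read as support. Cd83, which is known to steady class II at the surface, stood at 1840.5 and 1531 CPM, against 385 and 305 CPM (2.53, SE 0.24, adjusted p = 6.83e-09). Of the proteases, Ctsb, cathepsin B, was called higher (0.66, SE 0.17, adjusted p = 0.00638, edgeR), while 4 were called lower: Ctsl, cathepsin L, at -1.29 (SE 0.20), Ctsd, cathepsin D, at -2.21 on the log2 scale (SE 0.21), Lgmn, legumain, at -1.60 (SE 0.22) and Ctss, the cathepsin that trims the invariant chain, at -1.02 (SE 0.19). Ctsb and Ctsl were named after their values were seen. In monocytes 4 of the 22 were higher and 8 lower, where 26.6% and 24.1% of all genes were called, so the count in either direction lay near the 50.6% of all genes. Cd40 was among the higher genes, with 6.26 (SE 0.73) and the same limit from the filter. The lower ones included Lgmn with -4.09 (SE 0.24), Ctsd with -4.04 (SE 0.23) and Ctss with -1.49 (SE 0.19). In neutrophils 4 of the 22 were higher and 10 lower, where 33% and 30.9% of all genes were called, and the count in either direction was no larger a share than the 63.9% of all genes. Lower genes included Lgmn at -3.48 (SE 0.23) and Ctss at -2.98 (SE 0.20), with Ctsd at -2.41 (SE 0.21).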

How the data were processed

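Each deposited table gives, for 1 library, the count of UMIs of a gene in a barcode, unscaled by the authors. Libraries were made with the droplet 3' kit of 10x Genomics, per the labels' protocols. The submitters' processing notes name Cell Ranger 3.0, Seurat 2.2 and mm10, and the authors' own filters are not stated there.

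Kept cells had at least 500 UMIs, 200 genes and at most 10% mitochondrial UMIs; no doublet caller was run. Microglia had at least 1% of UMIs from 12 microglial markers (6 or more detected), fewer than 3 border macrophage and fewer than 3 monocyte markers and under 1% neutrophil marker UMIs; cells with that microglial share that failed a limit on another class were called mixed. Border-associated macrophages and monocytes had under 1% of microglial and of neutrophil marker UMIs, 3 or more own markers, and more UMIs of their own list. Neutrophils had under 1% microglial marker UMIs, 4 or more own markers and at least 5% of UMIs from them. These limits were set with marker counts in view; 10, 23 and 21 cells of the deficient library, WT 1 and WT 2 lay between 0.8% and 1.2% microglial marker UMIs. The members, lists and tests were chosen with earlier results of these data known.

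UMIs were summed per library and class, since cells are not replicates, and tested over all genes passing filterByExpr with edgeR 4.0.16 in R 4.3.3 (quasi-likelihood, TMM, Benjamini-Hochberg at 0.05); the fit was tested on simulated data. Comparisons between classes kept library as a block, because both classes come from the same animal. Each SE was derived as the absolute log2 difference over the square root of the test's F statistic, since edgeR gives none. Levels carry exact Poisson and shares exact Clopper-Pearson intervals at 95%, which cover counting error only; 3' UMIs are not scaled by length. Named pathway genes are, in each fit, the 3 highest in microglia and the 2 with the largest fold. One result on a pathway gene is not reported here. Alternatives covered scaling, DESeq2 1.42.0, filters, the block, libraries, marker limits and depth.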

Additional observations from a re-analysis of the deposited data

Results flagged for a closer look

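The level of Cd74 in the deficient library lay on different sides of WT in different classes. It stood above both WT libraries in border-associated macrophages (32509 CPM, against 23263 and 18980.4 CPM in WT 1 and WT 2) and in monocytes (14724 CPM, against 5169 and 10486 CPM), and below both in microglia (49.0 CPM, against 49.9 and 52.0 CPM). This difference between classes was not tested, the microglial values lie within each other's counting intervals and did not pass the test (log2 difference -0.05, adjusted p = 0.854, edgeR), and the deficient group is 1 library with 10 and 24 cells of the first classes. The monocyte values rest on a minority of the cells in each library, with a median of 2 Cd74 UMIs per deficient monocyte, against 1 and 8 in WT 1 and WT 2. Cd74-positive cells made up 90.0% of deficient border-associated macrophages, against 69.7% of those in WT 1 and 74.2% in WT 2. The deficient border-associated macrophages had 5295 CPM of border macrophage markers, against 9261 and 8036 CPM in WT 1 and WT 2, with Lyve1, Cd163, Cbr2 and Cd209f not listed, and the part of this in the Cd74 values was not tested.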

How the results depend on the processing

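Over 255 single-gene values under alternatives with a test, 243 kept direction and side of the threshold, 9 lost a call, 3 gained one and none reversed; the losses are given beside their results. Leaving out 1 WT library gave, in neutrophils against microglia (log2 ratio of CPM plus 1), -0.85 without WT 1 and 1.95 without WT 2 for H2-Aa, -1.42 and 0.67 for H2-Ab1, and -2.07 and 1.72 for Cd74, reversed without WT 1. The cause of the changes below was not tested unless stated. Genes called between genotypes in microglia were 955, with 483 in DESeq2 and 523 with doubled marker numbers; members called were 1, with 0 in DESeq2. At 1000 UMIs per cell, genes called fell to 596 of 1429 in border-associated macrophages, 1219 of 3754 in monocytes and 1548 of 4737 in neutrophils, which have fewer UMIs by construction. Members called were 8 in border-associated macrophages, with 5 with all 3 libraries and 5 with doubled marker numbers, and 8 in neutrophils, with 4 with all 3 libraries and 5 when thinned; with all 3 libraries the classical chains, which the deficient table does not list, and H2-Ob were not tested. Without the replicate block, 1459, 3926 and 4918 genes were called in those classes, and the pairing changed no member call. No paired analysis was possible between genotypes because the groups share fewer than 2 replicate numbers. Border-associated macrophages with an H2-Ab1 UMI made up 42.1% and 33.3% of WT 1 and WT 2 with doubled marker numbers, against 63.6% and 58.1%. Microglia with one made up 1.99% and 1.86% when thinned, and 0.389% and 0.552% with at least 2 UMIs. Of border-associated macrophages with Lyve1 or Cd163 UMIs, 0.00% in WT 1 and 12.5% in WT 2 had a classical UMI when thinned, 33.3% and 37.5% with doubled marker numbers, and 28.6% and 0.00% with Lyve1 alone; without such UMIs 77.8% and 69.6% did when thinned, and 100.0% in WT 1 with doubled marker numbers.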
